A study of Mus musculus with 2 samples.

Results

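T cells need a second signal beside the antigen receptor, and 10 genes that code for receptors and ligands of that signal are described here: Cd28, Icos, Cd27, Tnfrsf9 (4-1BB), Tnfrsf4 (OX40), Tnfrsf18 (GITR), Cd40lg, Tnfsf9 (4-1BB ligand), Tnfsf4 (OX40 ligand) and Cd40. They were chosen by symbol, 10 of the 32285 genes in the tables, and all 10 were found. They were measured by droplet single-cell RNA sequencing of mouse prostate, with 1 tumour library and 1 library of normal tissue taken beside a tumour, and the series concerns the immune infiltrate of the tumour. The title of the normal library calls it healthy, while its tissue label places it beside a tumour. In both, CD45+ leukocytes and CD45- cells were sorted after enzymatic dissociation and loaded together, so sorting set the mix of cells. The tumour model, strain, genotype, treatment, age and number of animals are not stated in the labels used here, and the protocol text speaks of tumour tissue only.

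Engagement of an antigen receptor without costimulation tends to leave a T cell unresponsive. CD28 and ICOS belong to the immunoglobulin family and signal through phosphoinositide 3-kinase, CD28 answering CD80 and CD86 from the first contact and ICOS appearing after activation. CD27, 4-1BB, OX40 and GITR are tumour necrosis factor (TNF) receptors that recruit TRAF adaptors and activate NF-kB. Regulatory T cells carry OX40 and GITR at rest, and CD40 ligand on helper T cells licenses dendritic cells through CD40. In tumours these receptors are targets of agonist antibodies.

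Molecules were counted by unique molecular identifiers (UMIs), of which there were 77855775 in 6553 barcodes of normal adjacent tissue and 92188538 in 8237 barcodes of tumour. After removal of barcodes with under 200 genes or over 20% mitochondrial UMIs, 6209 and 7768 cells were left, with 18 barcodes shared by both libraries. Cells were put into gates by UMIs of fixed markers, and a T cell needed at least 2 UMIs of the CD3 genes. It could hold at most 2 UMIs of each set of B, macrophage, neutrophil, epithelial, fibroblast and dendritic markers, with NK markers not limited. The gates left 55.44% and 57.08% of cells outside. Among 2811 and 3078 barcodes with CD3, 899 and 1107 also held at least 50 UMIs of the macrophage C1q genes. Those mixed barcodes are described apart. In each pair of values the first is from normal adjacent tissue and the other from tumour. Levels are CPM, the UMIs of a gene summed over a gate and scaled to 1000000 UMIs of that gate. Each tissue had 1 library, so the tissues could not be compared by a test. Brackets and parentheses give 95% intervals that cover counting error only, not variation between animals.

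The CD8 T gate held 319 and 278 cells, the CD4 T gate 56 and 55, the regulatory T gate (Foxp3 detected) 26 and 18, the gamma delta T gate (Trdc detected) 288 and 394 and the NK gate 311 and 250. Median UMIs per cell in these gates ran from 3493 to 5917. A further 431 and 396 T cells carried none of these marker combinations and are called other T cells. Foxp3 summed to 614 and 434 CPM in the regulatory gate, where Ctla4 (1360 and 1207 CPM) and Il2ra (353 and 434 CPM), further markers of these cells, were also high. The dendritic gates held 41 and 73 type 1 cells (Xcr1, Clec9a), 96 and 125 type 2 cells (Cd209a, Flt3, Clec10a) and 46 and 71 migratory cells (Ccr7 with Fscn1), and the macrophage gate held 420 and 716 cells. Shares of cells with a UMI were computed at 2000 UMIs per cell. Neutrophils, which are not known for these T cell receptors, gave a background share of at most 3.17% for any member, at median depths of 2879.5 and 2227 UMIs.

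Promoter sequence is shown for the 3 receptors that were lower by 1.5-fold or more in tumour regulatory T cells (below), of which Tnfrsf4 and Tnfrsf18 are neighbours on chromosome 4 and Tnfrsf9 lies on the same chromosome. RefSeq sequence of GRCm38.p6 (250 bases before to 50 after each start site, plus strand, 5′ to 3′) was available for 4 of the 10 members. Tnfrsf9 has start sites in chr4:150919905-150920204 (site 1) and chr4:150927749-150928048 (site 2), Tnfrsf4 in chr4:156013445-156013744 and Tnfrsf18 in chr4:156026072-156026371. Capitals mark matches to the NF-kB motif GGGNNNNNCC or the AP-1 motif TGANTCA on either strand.
Tnfrsf9 site 1: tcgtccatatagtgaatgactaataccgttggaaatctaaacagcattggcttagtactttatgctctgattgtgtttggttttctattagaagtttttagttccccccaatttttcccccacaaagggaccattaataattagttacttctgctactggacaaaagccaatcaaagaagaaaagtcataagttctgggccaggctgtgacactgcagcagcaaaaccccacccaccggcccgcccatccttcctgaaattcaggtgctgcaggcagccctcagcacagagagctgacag
Tnfrsf9 site 2: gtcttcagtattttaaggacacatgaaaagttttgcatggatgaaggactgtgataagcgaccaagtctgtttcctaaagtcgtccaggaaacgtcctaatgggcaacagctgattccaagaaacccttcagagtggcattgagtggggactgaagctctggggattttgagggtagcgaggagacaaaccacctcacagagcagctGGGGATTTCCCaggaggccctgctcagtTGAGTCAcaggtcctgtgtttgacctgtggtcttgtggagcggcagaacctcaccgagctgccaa
Tnfrsf4: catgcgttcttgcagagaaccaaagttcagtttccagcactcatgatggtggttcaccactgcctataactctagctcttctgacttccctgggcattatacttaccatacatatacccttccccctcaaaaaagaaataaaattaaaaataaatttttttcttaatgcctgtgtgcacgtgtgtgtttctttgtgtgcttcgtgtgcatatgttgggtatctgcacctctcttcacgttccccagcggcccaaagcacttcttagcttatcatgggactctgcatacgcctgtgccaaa
Tnfrsf18: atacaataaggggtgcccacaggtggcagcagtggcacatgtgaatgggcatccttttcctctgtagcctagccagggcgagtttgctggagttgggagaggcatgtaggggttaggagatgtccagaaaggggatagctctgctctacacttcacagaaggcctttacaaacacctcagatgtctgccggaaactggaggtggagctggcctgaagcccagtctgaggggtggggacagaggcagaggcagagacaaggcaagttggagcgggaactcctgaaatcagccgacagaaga
Only site 2 of Tnfrsf9 held either motif among these 4 windows. Its overlapping NF-kB matches began 43 and 42 bases before the start and its AP-1 match 15 bases before it. Of 32851 mouse promoters of this length, 50.8% held the NF-kB letters and 7.81% the AP-1 letters, and a match marks letters only, not a known binding site.

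**Figure D1:**
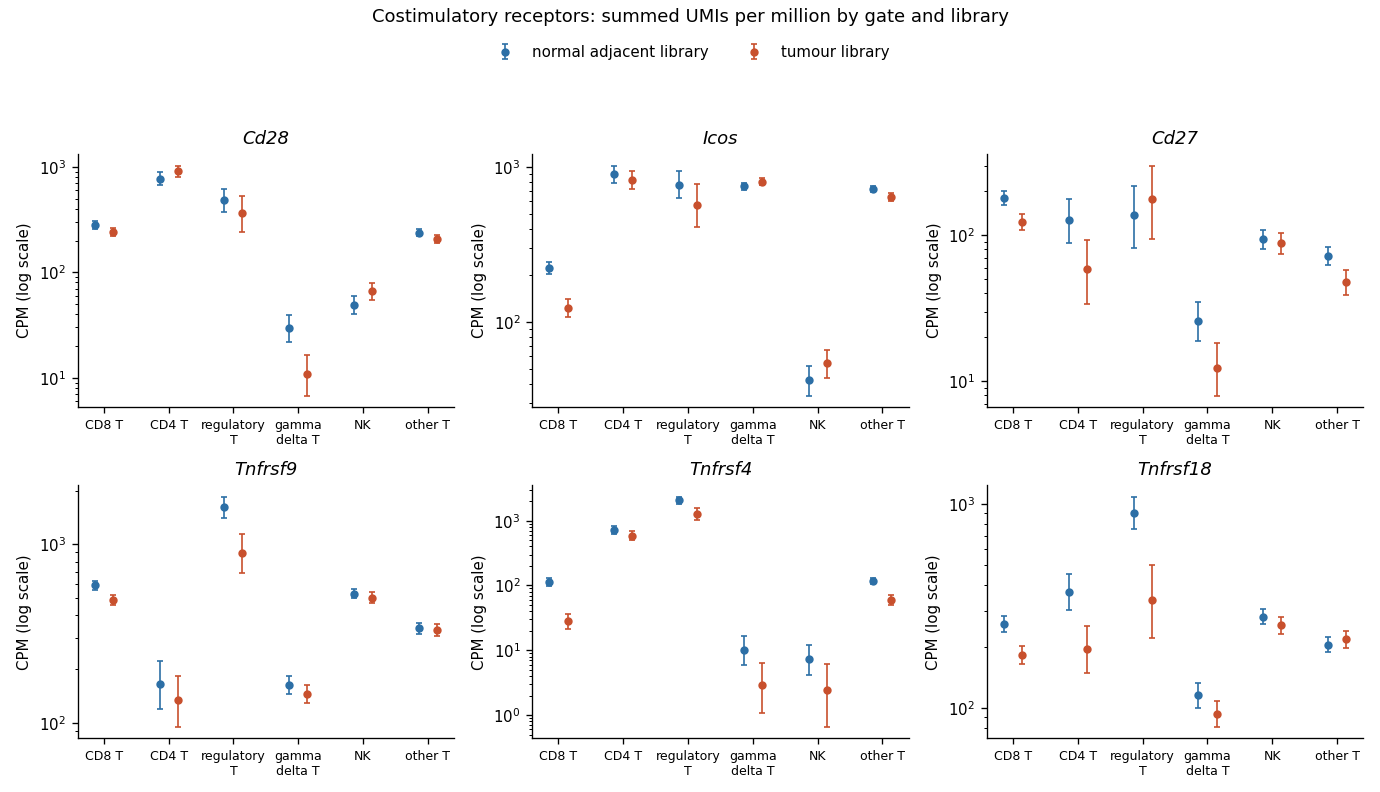
Level of the 6 receptors in each lymphoid gate, as CPM of summed UMIs on a log axis, for the normal adjacent and tumour libraries, with 95% Poisson intervals as bars. Regulatory T cells had the highest Tnfrsf4, Tnfrsf9 and Tnfrsf18 in both libraries, and the Tnfrsf4 points of CD8 T cells lay apart at 113 and 27.9 CPM.

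Cd28, the receptor for CD80 and CD86, was highest in CD4 T cells at 774 [672 to 888] and 913 [806 to 1029] CPM, and 67.4% and 75.9% of those cells had a UMI. The tumour level there was 1.18 times the normal adjacent one (0.979 to 1.42), so the direction was not settled by the counts. Regulatory T cells held 484 and 366 CPM, again with an interval that included no difference (1.32-fold lower in the tumour, 0.830 to 2.16). In CD8 T cells Cd28 stood at 282 [259 to 306] and 241 [219 to 264] CPM, 1.17-fold lower in the tumour library (1.03 to 1.33). Cd28 was thus detected in CD4, regulatory and CD8 T cells of both tissues. The small CD8 difference averaged unlike cells, since without those that carried Prss2 (described below) the ratio of tumour to normal adjacent was 0.517 (0.440 to 0.606). Gamma delta T cells held only 49 and 22 UMIs, or 29.6 and 10.8 CPM. That difference of 2.74-fold (1.62 to 4.75) rested on 2.86% and 1.56% of cells, near the neutrophil shares of 0.526% and 1.06%. NK cells held 49.4 and 66.1 CPM from 100 and 109 UMIs, slightly higher in the tumour library (ratio 1.34, 1.01 to 1.77). Their share of cells with a UMI differed by 1.69 points, with an interval that included 0 (-3.80 to 7.04).

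Icos, the inducible relative of Cd28, had a different order of levels. Gamma delta T cells carried 749 [707 to 791] and 803 [764 to 843] CPM, with a UMI in 62.9% and 68.7% of cells. CD4 T cells carried 899 [788 to 1020] and 824 [723 to 935] CPM. In the tumour library these gates were not separated (gamma delta over CD4 0.975, 0.851 to 1.12), and in the normal adjacent library gamma delta T cells were slightly lower (0.833, 0.725 to 0.961). Between libraries neither gate differed beyond counting error (ratio 1.07, 0.995 to 1.16, and 0.917, 0.763 to 1.10). Regulatory T cells held 768 and 570 CPM (ratio 0.742, 0.504 to 1.07), and other T cells 724 and 639 CPM (0.883, 0.823 to 0.947). In CD8 T cells Icos was lower and differed more, with 453 and 239 UMIs giving 223 [203 to 245] and 124 [108 to 140] CPM. The tumour level was 1.81-fold lower there (1.54 to 2.12), and the share of CD8 T cells with a UMI went from 25.1% to 15.4%, a difference of -9.68 percentage points (-16.2 to -2.99). NK cells held only 42.0 and 54.0 CPM (ratio 1.29, 0.944 to 1.75).

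Cd27, a TNF receptor of naive and memory T cells whose ligand is CD70, was at 180 [162 to 200] and 124 [108 to 140] CPM in CD8 T cells, 1.46-fold lower in the tumour library (1.24 to 1.73). The shares of cells with a UMI, 28.7% and 23.8%, differed by -4.95 points (-12.2 to 2.37). CD4 T cells held 34 and 17 UMIs, or 128 and 58.3 CPM, a 2.19-fold lower tumour level (1.19 to 4.18). Other T cells pointed the same way, at 72.5 and 47.8 CPM (1.52-fold, 1.19 to 1.95). NK cells, which also use CD27 during maturation, had 93.9 and 87.9 CPM (ratio 0.937, 0.749 to 1.17), and regulatory T cells only 18 and 13 UMIs. Gamma delta T cells had 43 and 25 UMIs, or 26.0 and 12.3 CPM (2.11-fold lower, 1.26 to 3.61). The summed level of Cd27 was therefore lower in the tumour library in CD8, CD4, gamma delta and other T cells, on few UMIs in the CD4 and gamma delta gates. At equal depth the share differences included 0 in CD4 (-12.1 points, -26.2 to 2.88), gamma delta (-2.02, -5.11 to 0.585) and other T cells (-3.41, -7.71 to 0.881) too. With no UMI of another lineage allowed, the CD8 ratio of tumour to normal adjacent was 0.756 (0.531 to 1.07).

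Tnfrsf9, which codes for 4-1BB, a receptor induced on activated CD8 T cells and NK cells, was highest in regulatory T cells. Their levels were 1613 [1402 to 1847] and 895 [692 to 1139] CPM from 210 and 66 UMIs, 1.80-fold lower in the tumour library (1.36 to 2.41). In CD8 T cells it stood at 590 [557 to 624] and 486 [455 to 518] CPM, 1.21-fold lower (1.11 to 1.32). The share of CD8 T cells with a UMI was 50.3% and 37.8%, which is -12.4 points (-20.3 to -3.98), so fewer cells had a detectable transcript. NK cells were near CD8 T cells in summed level, with 530 and 503 CPM (ratio of tumour to normal adjacent 0.950, 0.867 to 1.04). Their shares of cells with a UMI, 40.2% and 42.4%, lay below that of CD8 T cells in the normal adjacent library and above it in the tumour. The intervals of these shares overlapped those of CD8 T cells in both libraries, so their order was not settled. Gamma delta T cells were lower, at 163 and 145 CPM, and CD4 T cells held 165 and 134 CPM.

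The CD8 result for Tnfrsf9 depended on one group of cells. In the tumour library 84 of 278 CD8 T cells (30.2%) carried UMIs of Prss2, a trypsinogen gene, while none of the 319 normal adjacent CD8 T cells did. Within the tumour library Tnfrsf9 was 168 CPM in CD8 T cells with Prss2 and 591 CPM in those without, beside 590 CPM in the normal adjacent library. Without the Prss2 cells the ratio was 1.00 (0.917 to 1.10). Cd28 had the opposite order, 528 CPM with Prss2 and 146 CPM without, against 282 CPM in the normal adjacent library. Cells with a Prss2 UMI were chosen after the data were seen, and their source was not tested.

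**Figure D2:**
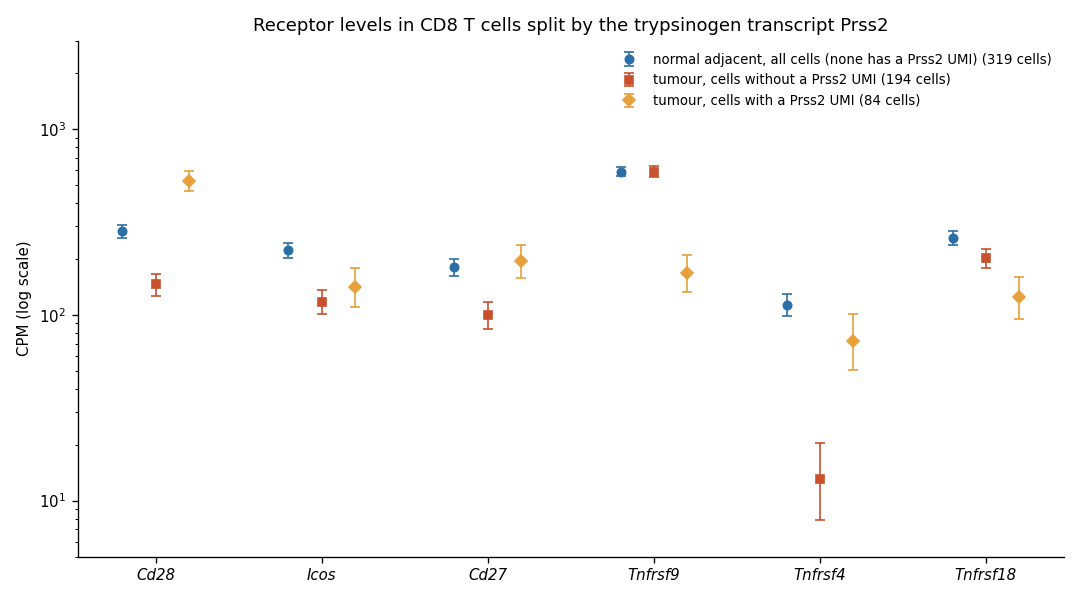
Levels of the 6 receptors in CD8 T cells of the normal adjacent library and of the tumour library with and without a Prss2 UMI, as CPM on a log axis with 95% Poisson intervals. Tnfrsf9 in tumour cells without Prss2 (591 CPM) met the normal adjacent value (590 CPM), while Tnfrsf4 was below its normal adjacent value of 113 CPM in both tumour groups.

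Tnfrsf4, which codes for OX40, showed the largest difference of any member among the T and NK gates with at least 20 UMIs in each library. CD8 T cells held 230 and 54 UMIs, or 113 [99.2 to 129] and 27.9 [21.0 to 36.4] CPM, a 4.06-fold lower level in the tumour library (3.01 to 5.57). When no UMI of another lineage was allowed, 68 and 62 cells remained and the ratio of tumour to normal adjacent was 0.471, with an interval that included 1 (0.197 to 1.05). A UMI was found in 80 of 319 and 22 of 278 cells, and at equal depth in 14.7% and 4.40%, a difference of -10.3 points (-15.2 to -5.44). In the tumour library 1 cell held 25.9% of these UMIs. CD8 T cells with and without Prss2 had 72.7 and 13.1 CPM there, so both lay below the normal adjacent level. Cells without UMIs of the cycling genes Mki67 and Top2a also differed, at 107 and 23.0 CPM. The summed level of those cycling genes was 153 and 252 CPM in the gate, that of the neutrophil markers 278 and 574 CPM and that of the migratory dendritic markers 20.7 and 88.9 CPM. The part of these markers in the result was not tested. Il17a and Ctla4 in the same CD8 T cells were 171 and 45.0 CPM and 241 and 128 CPM.

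Regulatory T cells had the highest Tnfrsf4, at 2082 [1841 to 2345] and 1261 [1018 to 1545] CPM from 271 and 93 UMIs. At equal depth 91.3% and 77.3% of them had a UMI, a difference of -13.9 points with an interval that included 0 (-37.7 to 8.06). The tumour level was 1.65-fold lower (1.30 to 2.11). CD4 T cells held 726 [627 to 835] and 587 [502 to 682] CPM, with a ratio whose interval just missed 1 (0.809, 0.654 to 0.999) and the same share of cells with a UMI (49.7% and 49.9%). Within a library, the level in CD4 T cells exceeded that in CD8 T cells 6.40-fold (5.26 to 7.78) in the normal adjacent tissue and 21.0-fold (15.4 to 29.1) in the tumour. The gap between CD4 and CD8 T cells was thus wider in the tumour library. Other T cells were at 117 and 59.1 CPM (1.97-fold lower, 1.60 to 2.44), and gamma delta T and NK cells gave no more than 17 UMIs in a library, in at most 1.49% of cells at equal depth, beside 1.47% and 0.639% of neutrophils.

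Tnfrsf18 codes for GITR, a hallmark of regulatory T cells, where it was at 906 [750 to 1085] and 339 [219 to 501] CPM. These values rested on 118 and 25 UMIs, found in 24 of 26 and 10 of 18 cells. The tumour level was 2.67-fold lower (1.73 to 4.30), and at equal depth the share of cells with a UMI differed by -35.3 points (-57.7 to -5.35). At 1000 UMIs per cell that difference was -29.4 points with an interval that included 0 (-50.0 to 3.58), and with no limit on other lineages (62 and 54 cells) the level ratio was 0.682 (0.557 to 0.832), short of 1.5-fold. Ikzf2, a transcription factor of regulatory T cells, was also lower in the tumour (1106 and 624 CPM), while the Foxp3 level was 614 and 434 CPM. CD4 T cells showed the same direction with 372 [302 to 453] and 196 [148 to 253] CPM, 1.90-fold lower (1.36 to 2.68), and a share lower by 19.3 points (interval of the difference -36.6 to -1.14). CD8 T cells held 258 and 182 CPM (1.42-fold lower, 1.23 to 1.63). NK cells had 281 and 255 CPM (ratio 0.910, 0.800 to 1.03), and in the tumour library that value lay within the interval of the regulatory T cells.

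Dissociation genes (Fos, Jun, Hspa1a, Hspa1b) summed to 2105 and 1356 CPM in regulatory T cells, with Hspa1a and Hspa1b at 0 in the tumour library. The macrophage markers summed there to 131 and 190 CPM. In CD8 T cells the dissociation genes summed to 757 and 882 CPM and the macrophage markers to 152 and 128 CPM. The part of either list in the receptor differences was not tested.

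Cd40lg, the helper T cell signal to CD40, was found mainly in CD4 T cells and in other T cells. CD4 T cells held 25 and 29 UMIs, or 94.0 [60.8 to 139] and 99.5 [66.6 to 143] CPM (ratio 1.06, 0.599 to 1.89). Other T cells held 112 and 95.1 CPM (0.846, 0.704 to 1.01), with a UMI in 17.5% and 17.3% of cells. CD8 and gamma delta T cells stayed at 8.85 to 13.8 CPM, and NK cells gave 1 and 0 UMIs.

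**Figure D3:**
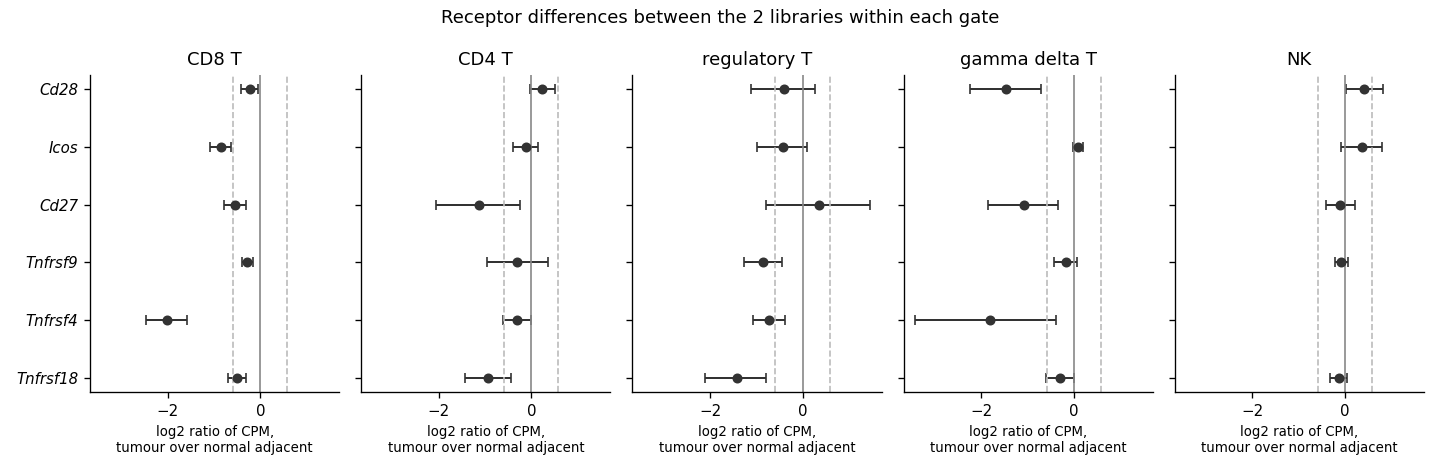
Log2 ratio of tumour to normal adjacent CPM for each receptor in 5 lymphoid gates, with exact 95% intervals of counting error, a solid line at no difference, dashed lines at 1.5-fold and receptors under 20 UMIs left out. All points of CD8 T cells lay below 0, Tnfrsf4 farthest (4.06-fold lower), and in CD4 and regulatory T cells all but Cd28 and Cd27, respectively, did.

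Set against all genes, a member was counted as different at 1.5-fold or more with at least 20 UMIs over both libraries. In CD8 T cells 9 of 10 members could be judged, 2 of them lower (Tnfrsf4, Icos) and 0 higher, where 7.79% of 8686 genes were that much lower and 15.3% differed either way. Their median log2 ratio was -0.50, against -0.02 over all genes. In regulatory T cells 3 of 6 judged members were lower (Tnfrsf9, Tnfrsf4, Tnfrsf18), beside 15.4% of genes lower and 28.6% different. In CD4 T cells 2 of 7 were lower (Tnfrsf18, Cd27), beside 14.2% lower and 24.9% different. In gamma delta T cells 3 of 8 were lower (Tnfrsf4, Cd27, Cd28), all of them scarce there, beside 6.08% lower and 13.9% different. In other T cells 2 of 8 were lower (Tnfrsf4, Cd27), beside 6.55% lower and 12.1% different. In NK cells 1 of 7 was higher, Tnfsf9 with 13 and 16 UMIs and an interval that included 1, beside 8.23% of genes higher and 14.1% different. The share of lower members was above that of lower genes in each T gate, but it rested on 2 or 3 of 6 to 9 judged genes. No excess of lower members is read from these counts, and NK cells gave no lower member.

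The receptors were also counted per cell, as the number of the 6 (Cd28, Icos, Cd27, Tnfrsf9, Tnfrsf4, Tnfrsf18) with a UMI at 2000 UMIs. CD8 T cells had a mean of 1.90 and 1.42 receptors. At least 3 receptors were found in 28.8% (23.6 to 34.4) of normal adjacent and 12.2% (8.60 to 16.8) of tumour CD8 T cells. This count included the Prss2 cells, present only in the tumour CD8 T gate, and their part in the difference was not tested. Regulatory T cells had means of 3.9 and 3.0, with at least 3 receptors in 88.4% (67.6 to 97.3) and 68.3% (41.0 to 86.7) of cells, and CD4 T cells had means of 2.67 and 2.38, with at least 3 in 56.8% and 44.9%. Gamma delta T cells (1.05 and 1.00) and NK cells (1.08 and 1.11) had about 1 receptor each in both libraries. The intervals of the share with at least 3 receptors were apart in CD8 T cells and overlapped in regulatory T cells, and differences between gates were not tested.

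**Figure D4:**
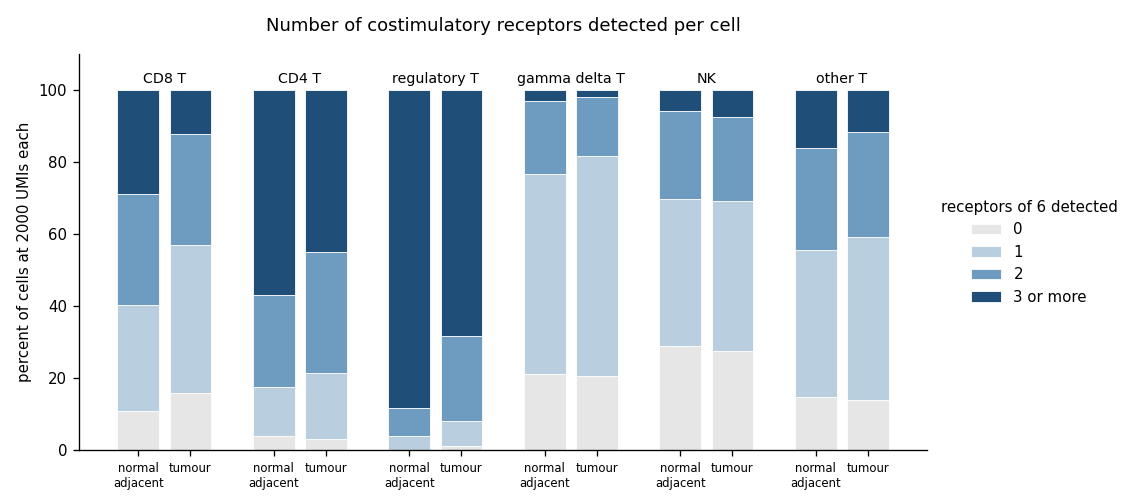
Share of cells in each lymphoid gate, in percent, by the number of the 6 receptors with a UMI when every cell is thinned to 2000 UMIs, for both libraries. In CD8 T cells the share with at least 3 receptors was 28.8% in the normal adjacent and 12.2% in the tumour library, while NK cells had 5.80% and 7.40%. Tumour CD8 T cells with Prss2 were included.

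Within CD8 T cells the receptors did not all sit on the same cells. In the normal adjacent library 42.4% of cells with a Tnfrsf9 UMI also had Tnfrsf18, against 27.2% of cells without Tnfrsf9 (15.1 points, 4.36 to 25.9). Icos went the other way, at 19.0% and 31.3% (-12.3 points, -22.2 to -2.40). In the tumour library Cd28 was found in 18.2% of Tnfrsf9-positive and 44.3% of Tnfrsf9-negative CD8 T cells (-26.1 points, -36.0 to -15.0), and Icos in 6.94% and 20.2%. Tnfrsf18 there was found in 33.2% and 22.6% (10.6 points, 0.124 to 22.3). Over the whole gate, cells with Tnfrsf9 thus more often had Tnfrsf18 and less often Icos in both libraries. Prss2-positive cells, low in Tnfrsf9 and high in Cd28, were part of the tumour gate. Tnfrsf18 was 182 CPM in all tumour CD8 T cells and 202 CPM in those without Prss2. The part of the Prss2 cells in the Cd28, Icos and Tnfrsf18 contrasts was not tested.

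Cd40, through which helper T cells activate antigen-presenting cells, was highest in migratory dendritic cells, at 234 [197 to 277] and 243 [211 to 278] CPM (ratio 1.04, 0.831 to 1.29). It exceeded type 2 dendritic cells (92.0 and 96.7 CPM) 2.55-fold and 2.51-fold, and macrophages (52.3 and 59.1 CPM) 4.48-fold and 4.11-fold. Over all dendritic cells the ratio of tumour to normal adjacent was 0.984 (0.837 to 1.16) and in macrophages 1.13 (0.955 to 1.34). Cd40 levels in these cells thus differed little between the tissues. Type 1 dendritic cells had 20 and 14 UMIs, or 27.5 and 12.6 CPM (2.18-fold lower in the tumour, 1.05 to 4.66).

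Tnfsf9, the ligand of 4-1BB, was led by type 2 dendritic cells at 241 [213 to 271] and 205 [182 to 231] CPM (ratio 0.853, 0.720 to 1.01). Migratory dendritic cells held 159 [129 to 195] and 98.8 [78.7 to 122] CPM, 1.61-fold lower in the tumour (1.19 to 2.19), with shares of cells with a UMI of 19.1% and 11.9% that differed by -7.27 points (-21.5 to 6.39). Type 1 dendritic cells went the other way, 33.0 and 73.9 CPM from 24 and 82 UMIs (ratio 2.24, 1.41 to 3.69), where 33.3% and 22.0% of the UMIs came from 1 cell of each library. Macrophages held 44.1 and 39.5 CPM (ratio 0.894, 0.739 to 1.09). The dendritic subsets therefore differed in direction for Tnfsf9, on counts that a few cells could move.

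Tnfsf4, the ligand of OX40, gave few UMIs. Migratory dendritic cells had the highest level, 26.8 [15.3 to 43.5] and 29.7 [19.2 to 43.9] CPM from 16 and 25 UMIs. Type 2 dendritic cells had 6 and 19 UMIs, or 5.16 and 14.2 CPM (ratio 2.76, 1.06 to 8.45). Over all dendritic cells the ratio was 1.58 (0.934 to 2.76), not separable from 1 at this depth. Macrophages stayed at 1.53 and 0.940 CPM.

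Receptor transcripts were present in dendritic cells too. Migratory dendritic cells held Tnfrsf4 at 243 [205 to 286] and 237 [205 to 272] CPM, with 33.1% of the normal adjacent UMIs in 1 cell, and Tnfrsf9 at 147 and 144 CPM in 22.9% and 22.7% of cells. Both were close to equal between libraries (Tnfrsf4 ratio 0.975, 0.783 to 1.22). Macrophages held Tnfrsf4 at 6.63 and 5.37 CPM in 1.27% and 0.819% of cells, no higher than in neutrophils (1.47% and 0.639%) in the normal adjacent library.

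In type 2 dendritic cells 1 of 5 judged members was higher (Tnfsf4) and 1 lower (Tnfrsf9), beside 7.87% of genes higher, 10.2% lower and 18.1% different. In type 1 dendritic cells 1 of 3 was higher (Tnfsf9) and 1 lower (Cd40), beside 10.9%, 9.33% and 20.3%. In migratory dendritic cells 1 of 6 was lower (Tnfsf9), beside 9.7% of genes lower and 21.4% different. In the pooled dendritic gate 1 of 6 was higher (Tnfsf4), beside 7.35% higher and 14.5% different. In macrophages 1 of 8 was higher (Tnfrsf18) and 1 lower (Cd27), beside 6.37%, 4.96% and 11.3%. With 1 member in a direction per gate, nothing is read from these counts.

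**Figure D5:**
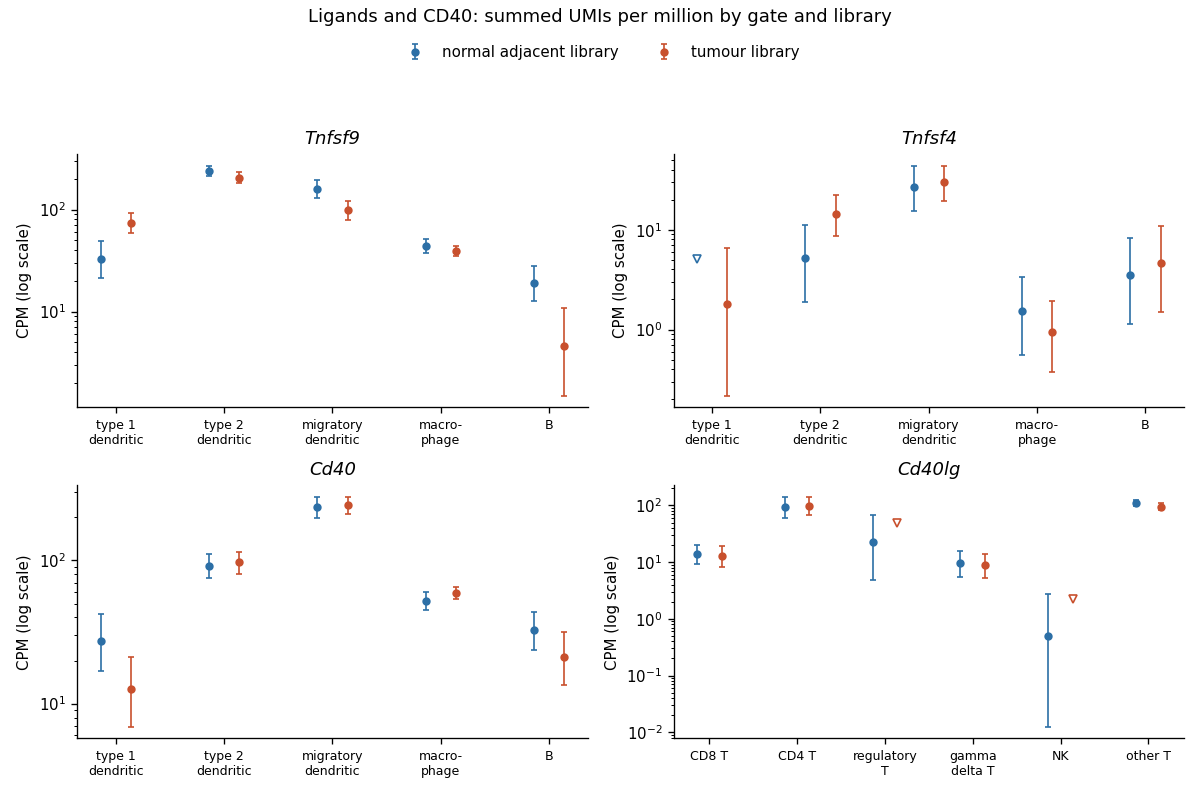
Levels of Tnfsf9, Tnfsf4 and Cd40 in the dendritic, macrophage and B gates and of Cd40lg in the lymphoid gates of both libraries, as CPM on a log axis with 95% Poisson intervals. Open triangles mark the upper limit of that interval where no UMI was found. Cd40 was highest in migratory dendritic cells (234 and 243 CPM) and Tnfsf9 in type 2 dendritic cells (241 and 205 CPM).

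The genes that relay the members' signals showed no common direction in CD8 T cells. Of 12 TRAF and NF-kB genes, Traf2 was higher in the tumour library (1.81-fold), Birc3 was lower, and the list median was 0.13 on the log2 scale, beside 7.47% of all genes higher. Nfkb1, the p105 subunit gene downstream of the TNF receptors, was 150 and 211 CPM in CD8 T cells, 568 and 1058 CPM in regulatory T cells and 228 and 327 CPM in NK cells. Of 10 genes that relay CD28 and ICOS signals, 1 was higher (Prkcq, ratio 1.67) and 0 lower. Of the 4 other costimulatory molecules 1 was lower by 1.5-fold or more in CD8 T cells, beside 7.79% of all genes. That gene was Slamf1 (50.3 and 17.6 CPM), while Cd2, the receptor for CD48, stood at 298 and 228 CPM. The median log2 ratio of these 4 was -0.47, beside the members' -0.50, and those of the relay lists were 0.13 and 0.17. The part of the Prss2 cells in these medians was not tested.

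Ligands outside the members were read in the antigen-presenting gates. Cd86, a ligand of CD28, was 358 and 221 CPM in migratory dendritic cells (ratio 0.617, 0.505 to 0.755), and 255 and 322 CPM in type 2 dendritic cells (1.26). Cd80 was 81.7 and 121 CPM in type 2 dendritic cells and 20.4 and 30.2 CPM in macrophages. Cd70, the CD27 ligand, was 26.8 and 51.2 CPM in migratory dendritic cells (ratio 1.91, 1.05 to 3.63). Icosl was 25.8 and 45.0 CPM in type 2 dendritic cells (1.74, 1.11 to 2.80). Tnfsf18, the GITR ligand, had no UMI in the dendritic and macrophage gates. Of the 3 ligands judged in type 2 dendritic cells 1 was higher (Icosl), beside 7.87% of genes. Of the 4 in migratory dendritic cells 1 was higher (Cd70) and 1 lower (Cd86), beside 11.7% of genes higher and 9.7% lower.

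Barcodes with both CD3 and C1q held 39.2% and 34.4% of all Tnfrsf9 UMIs and 47.4% and 48.2% of those of Tnfrsf4. Their median depth was 30297 and 25828 UMIs. Tnfrsf9 was 164 and 92.7 CPM in them (1.77-fold lower in the tumour) and Tnfrsf4 70.4 and 36.7 CPM (1.92-fold lower). Of 10 members 4 were lower by 1.5-fold or more (Tnfrsf9, Tnfrsf4, Cd27, Tnfsf4), beside 4.16% of genes lower and 10.1% different. In the tumour library 360 of these 1107 barcodes (32.5%) carried Prss2, as did 9 of 899 in the other. Without them the ratio of tumour to normal adjacent was 0.593 (0.564 to 0.624) for Tnfrsf9, 0.609 (0.564 to 0.657) for Tnfrsf4 and 0.506 (0.461 to 0.556) for Cd27. All were thus lower in these barcodes whether or not those with Prss2 were counted, unlike Tnfrsf9 in the CD8 gate. The mixed barcodes hold any T cell subset together with macrophage transcripts. Their CPM also depends on that mix, so they are not like the CD8 gate. Over all filtered cells, where numbers of each cell type and RNA per cell cannot be told apart, 3 of 10 members were lower (Tnfrsf9, Tnfrsf4, Cd27), beside 4.4% of genes lower and 11% different.

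The genes most like each member were ranked by Pearson r of log2(CPM + 10) over 22 gate sums of these libraries, a description over points that share libraries. Sums of under 50 cells were left out, namely both regulatory T gates and the normal adjacent type 1 and migratory dendritic gates. Regulatory T cells, with the highest Tnfrsf9, Tnfrsf4 and Tnfrsf18, thus had no part in the ranking. Tnfrsf9 was most like Ccl5 (0.963), Ctsw (0.962) and Tbx21 (0.948), genes of cytotoxic lymphocytes. Tnfrsf4 was most like Chst2 (0.870), Izumo1r (0.861) and Slamf1 (0.842), and Tnfrsf18 like Gbp4 (0.952), Tnfrsf9 (0.947) and Ctla2a (0.945). Cd27 was most like Rgs16 (0.991), Abcb1a (0.986) and Fasl (0.976). Icos was most like Camk4 (0.981), Tnfsf11 (0.977) and Bcl11b (0.977), and Cd28 like Ubash3a (0.953), Sh2d1a (0.933) and Lck (0.926). Cd40lg was most like Trat1 (0.920), Ccr4 (0.912) and Cd5 (0.909). Among the antigen-presenting members, Cd40 was most like Nrp2 (0.976), Ifi30 (0.934) and Arl5c (0.930) and Tnfsf9 like Gosr2 (0.939), Wnt11 (0.930) and Nav1 (0.923), while Tnfsf4, with few UMIs, had no gene above 0.747 (Med11).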

How the data were processed

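The authors deposited 1 matrix of unnormalized UMI counts for each tissue, and the file headers name Cell Ranger 4.0.0. The submitters' processing notes also list R 4.0.3, Seurat 3.2.2 and GRCh38, a human build, although all features are mouse genes. The mouse build and the use of strand in counting are not stated, so counts where Tnfrsf4 overlaps Sdf4, Tnfrsf18 overlaps Gm16008 and Tnfsf9 overlaps Gm11110 are uncertain.

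The members, gates and gene lists were chosen with earlier results of these data known. Barcodes with at least 200 genes and at most 20% mitochondrial UMIs were kept. The T gates allowed at most 2 UMIs of each other lineage's markers, of which the neutrophil limit used Csf3r and Cxcr2. NK markers were not limited in T cells, also where no UMI of another lineage was allowed. Dendritic and macrophage gates needed at least 20 UMIs of MHC class II genes, and macrophages at least 10 of C1q. The NK gate also takes type 1 innate lymphoid cells. No doublet caller was run, and the limits on other lineages stand in its place. UMIs were summed per gate and scaled to CPM with exact Poisson intervals. Intervals are exact conditional binomial for ratios, exact Clopper-Pearson for shares and Newcombe for share differences, all at 95%. Shares at 2000 UMIs are means over all possible draws, with shallower cells left out (285 of 319 and 269 of 278 CD8 T cells remained). Counts of receptors per cell are means over 100 draws. A gene was counted as different at 1.5-fold or more with at least 20 UMIs over both libraries. Median log2 ratios over genes carry 0.5 added UMIs, and log2 ratios of single genes carry none. No p-value was computed. The code was tested on simulated data. All 10 members are named in the gates where they are described. Pathway genes named have at least 20 UMIs in the gate, and for each member the 3 most alike genes were ranked among genes with at least 50 CPM in some gate. Prss2, Il17a, Ikzf2 and Ctla4 were named after their values were seen. Alternatives changed the cell filters, gate limits, scaling and depth. Python 3.11.15, NumPy 2.4.6, SciPy 1.17.1, pandas 2.3.3 and matplotlib 3.10.9 were used.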

Additional observations from a re-analysis of the deposited data

Results flagged for a closer look

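For 3 members, gates of the same comparison lay in opposite directions with whole intervals on opposite sides of an equal level. The difference between gates was not tested, since each tissue had 1 library. Tnfrsf18 had a log2 ratio of tumour to normal adjacent of -1.42 in regulatory T cells and -0.93 in CD4 T cells, and of 0.61 in macrophages, where 1.57% and 2.07% of cells had a UMI at equal depth, beside 3.17% and 1.05% of neutrophils. Cd28 stood at -1.45 in gamma delta T cells and 4.19 in B cells, the latter from 2 and 28 UMIs with 32.1% of the tumour UMIs in 1 cell. Short of 1.5-fold, Cd28 also stood at 0.42 in NK cells, against -0.23 in CD8 and -0.19 in other T cells. Tnfsf9 stood at 1.16 in type 1 dendritic cells, -0.69 in migratory dendritic cells and -2.05 in B cells, where 77.8% of the 27 normal adjacent UMIs came from 1 cell.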

How the results depend on the processing

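Of 121 recomputed level ratios, 106 moved by less than their interval. In 20 the sign was opposite, all of them in ratios whose reported interval included no difference except 1, Tnfrsf9 in CD8 T cells. Without cells that carried Prss2, an alternative added after seeing the data, the log2 ratio of Tnfrsf9 in CD8 T cells went from -0.28 to 0.0032, that of Tnfrsf4 from -2.02 to -3.12 and that of Cd27 from -0.55 to -0.86. With no UMI of another lineage allowed (68 and 62 CD8 T cells) Tnfrsf4 there was -1.09, Cd28 in CD4 T cells -0.25 (main value 0.24), Tnfsf9 in macrophages 0.26 (main -0.16) and Tnfsf4 in dendritic cells -0.32 (main 0.66). With no limit on other lineages (934 and 991 CD8 T cells) Tnfrsf9 in CD8 T cells was -0.84, Tnfrsf18 in regulatory T cells -0.55 (main -1.42), Cd28 in CD4 T cells -0.16 and Tnfsf4 in dendritic cells -0.29. Tnfrsf9 in CD8 T cells was -0.41 thinned to 2000 UMIs and -0.47 as the mean of single-cell CPM. Stricter own markers gave Cd28 in CD4 T cells 0.71, and up to 10 macrophage UMIs, also added later, gave Icos in CD4 T cells 0.17 (main -0.13). The cause of these shifts was not tested. Tnfrsf4 in CD8 T cells was lower under 12 of 12 alternatives, its interval reaching 1.05 on the linear scale with no UMI of another lineage, and Cd40 in dendritic cells, near 0, kept its sign under 4 of 10. The share of all genes past 1.5-fold, with a minimum of 50 UMIs and with none, was 8.92% and 39.5% in CD8 T cells, 14.7% and 56.7% in CD4, 15.5% and 70.4% in regulatory and 7.45% and 39.3% in gamma delta T cells, 7.38% and 39.8% in NK cells, 8.09% and 39.0% in dendritic cells and 6.57% and 37.2% in macrophages. No paired analysis was possible because each group has 1 library, and no replicate could be left out. The regulatory T gate held 26 and 18 cells, which limits its precision.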

Other observations

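Nfkb1 was higher in the tumour library in each of the 5 lymphoid gates described, with CPM ratios of 1.41 in CD8 T cells, 1.41 in CD4 T cells, 1.86 in regulatory T cells, 1.32 in gamma delta T cells and 1.44 in NK cells. Cd2, an adhesion receptor of T and NK cells, was lower in tumour gamma delta T cells (71.9 and 31.5 CPM), regulatory T cells (1106 and 719 CPM) and NK cells (143 and 112 CPM). Among other T cells, Icos was found in 27.4% of Tnfrsf9-positive and 61.0% of Tnfrsf9-negative normal adjacent cells, and in 16.8% and 61.5% of tumour cells, the same arrangement as in CD8 T cells.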
